A study of Mus musculus with 12 samples.

Results

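The genes described here encode the constitutive proteasome, its regulatory particle, its activators and inhibitor and its assembly chaperones, measured as poly(A) RNA in PMφs, the macrophages that thioglycolate draws into the mouse peritoneal cavity. Members were the symbols made of Psma, Psmb, Psmc, Psmd, Psme, Psmf or Psmg and a number, leaving out the immunoproteasome genes Psmb8, Psmb9 and Psmb10, with a value of at least 10 in 3 or more of the 12 libraries. Of 45 such symbols, 44 passed this floor, among 13482 genes that passed it and 43278 symbols in the table. Psmb11 did not pass. The rule used no difference between groups.

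All groups were wild-type C57BL/6J PMφs, harvested 4 days after thioglycolate from male and female mice of 8 to 12 weeks and of 1 or 2 litters, whose cells were pooled and divided among the 4 groups. Control PMφs received neither agent, oxLDL PMφs were cultured for 24 h with 100 µg/ml oxLDL, a lipoprotein that macrophages take up and store, LPS PMφs were given 10 ng/ml ultrapure LPS, a bacterial ligand of TLR4, and oxLDL+LPS PMφs were given LPS after oxLDL. The time with LPS is not stated for these libraries. Each group had 3 libraries, numbered 1 to 3, and the table does not show which mice made up a number. p-values therefore measure the spread between these libraries, or, with the replicate number as a block, the spread of differences within numbers.

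The deposited numbers behave as read counts that had already been scaled to make libraries comparable and then rounded, and they are called values here. They summed to between 17152972 and 17709731 in libraries without LPS and to between 22071853 and 26384551 in libraries with LPS, and the gaps between the low values imply 16725738 to 26179883 reads on genes per library. The labelled cell type was checked on marker genes fixed for the purpose. The 6 macrophage markers summed to between 230307 and 318582, whereas those of T cells, neutrophils and eosinophils summed to at most 6 and those of B cells and mast cells to at most 83. The 6 mesothelial and fibroblast markers were not absent, at 3865 to 24592. In bulk samples, fewer cells of a type and less RNA per cell cannot be told apart.

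The proteasome is the protease that degrades proteins tagged with ubiquitin. Its core particle stacks rings of alpha subunits, which form the gate, around rings of beta subunits, of which Psmb5, Psmb6 and Psmb7 carry the chymotrypsin-like, caspase-like and trypsin-like sites. The regulatory particle has a base, whose Psmc ATPases unfold substrates, and a lid, whose subunit Psmd14 removes ubiquitin. In macrophages given inflammatory signals, Psmb8, Psmb9 and Psmb10 replace the constitutive catalytic subunits in newly made core particles, and the activator of Psme1 and Psme2 can take the place of the regulatory particle.

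The 44 members comprised 8 core alpha genes, 7 core beta genes, 9 base genes, 8 lid genes, 3 base assembly chaperones, 4 core assembly chaperones and 5 activators or inhibitors. Levels were compared between genes per kb of the principal protein-coding transcript. In Control PMφs, the core genes other than Psma8 ran from 379 per kb for Psma2 to 3879 per kb for Psmb6, a 10.2-fold range although the subunits are built into the particle in equal numbers. Psma8, a germ-cell alternative to Psma7, had 18.3 per kb in Control PMφs. Psmd8, a lid subunit, had 4956 per kb, the highest level among the members in Control PMφs, and the median of the 8 lid genes was 672 per kb. Per kb of all annotated exons rather than of the principal transcript, Psmd8 had 2497. By that length the core genes other than Psma8 had a narrower range, from 301 for Psma2 to 1654 for Psmb6. The chaperones were lower, with the core assembly genes at 112 to 189 per kb and the base assembly genes at a median of 140 per kb.

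**Figure D1:**
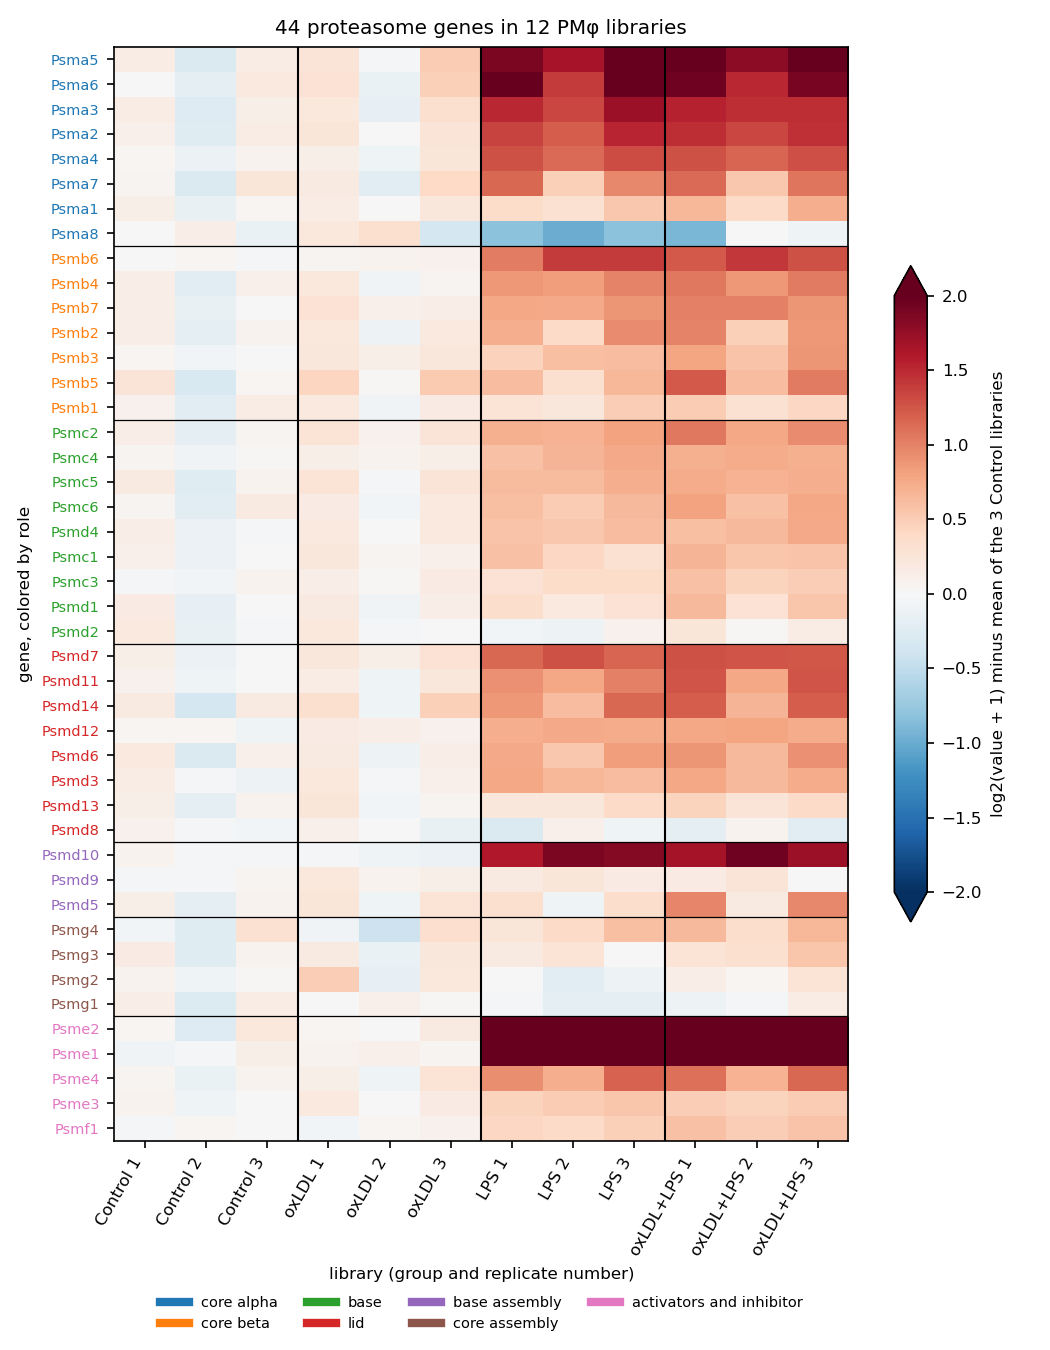
Each cell is the log2(value + 1) of a gene (rows, grouped by role) in a library (columns, group and replicate number) minus the mean of the 3 Control libraries, with colors clipped at -2 and 2. The columns with LPS are red for most genes, Psmd2, Psmd8 and the core assembly genes stay near white, and Psma8 is blue in 4 of the 6 LPS columns. Library 2 often has the lowest value of its group.

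Promoter sequence was examined for the motif of the antioxidant response element, which NRF2 and the related NRF1 bind at proteasome genes, and for the CCAAT box, which NF-Y binds. RefSeq gave a window from 250 bases before to 50 after the start for 36 of the 44 members on GRCm38.p6. These 36 had 39 windows, and a member was counted if any of its windows matched. The share over all genes is of single windows, so the percentages are not fully alike. The letters TGACNNNGC, on either strand, were found in windows of 6 of 36 members (16.7%) and in 12.39% of 32851 windows of all genes. The matches that lie before the start are shown because they include the catalytic genes Psmb5 and Psmb6. Each is read on the gene's own strand, with up to 20 bases on either side and the match in capitals.
Psmb5, chr14:54618014-54618062, minus strand: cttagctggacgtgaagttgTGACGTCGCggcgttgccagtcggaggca
Psmb6, chr11:70525328-70525356, plus strand: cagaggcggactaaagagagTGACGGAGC
Psmd9, chr5:123228139-123228187, plus strand: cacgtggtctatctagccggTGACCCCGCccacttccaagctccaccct
Psmd12, chr11:107479278-107479309, plus strand: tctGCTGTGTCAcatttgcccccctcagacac
Psmc6, chr14:45329577-45329625, plus strand: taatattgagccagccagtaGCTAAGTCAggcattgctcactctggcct
The match of Psmb5 lies 47 to 39 bases before the start, and in Psmd12 and Psmc6 the letters are on the opposite strand. The sixth member with these letters was Psme4, where they cross the start.

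The letters CCAAT, on either strand, were in windows of 12 of 36 members (33.3%) and in 37.41% of all windows. Of the 7 core alpha genes with a window, 5 held them, and a match of 4 of these genes, whose values with LPS are given in the next paragraphs, is shown with its surroundings.
Psma1, chr7:114276190-114276234, minus strand: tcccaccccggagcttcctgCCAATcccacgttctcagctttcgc
Psma2, chr13:14613168-14613212, plus strand: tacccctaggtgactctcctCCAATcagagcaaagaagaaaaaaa
Psma3, chr12:70974464-70974508, plus strand: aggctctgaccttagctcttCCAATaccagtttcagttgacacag
Psma6, chr12:55384173-55384217, plus strand: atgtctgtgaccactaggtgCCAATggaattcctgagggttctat
A match is only a run of letters, and no binding was measured in these libraries.

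With LPS alone, most proteasome genes rose. Of the 44 members, 35 were higher and 1 was lower in LPS than in Control PMφs, by limma with Benjamini-Hochberg adjustment over 13006 genes and a threshold of 0.1. Among all genes tested, 61.7% were called, 31.4% as higher and 30.3% as lower. The median log2 fold change was 0.67 over the members and -0.00 over all genes. The 36 members whose 3 LPS values all lay above the 3 Control values made up 81.8%, beside 31.6% of all genes. Because LPS libraries sum to more, scaling to the same total moved the median of all genes to -0.48 and that of members to 0.19. With equal totals, 18 members were called higher and 6 lower, beside 2207 and 7189 of 13006 genes. Of the 35 members called higher as deposited, only these 18 stayed called higher. Of all calls 50.9% were higher as deposited and 23.5% with equal totals, and of the calls of members 97.2% and 75.0%. Relative to the median of all genes, the members stood at 0.67 under either scaling. A factor per library shifts all genes nearly alike, so this distance could hardly change. After quantile normalization it was 0.49, with medians of 0.35 for the members and -0.14 for all genes.

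Among the subunits, the core alpha genes had the highest median. All but Psma8 were called higher with LPS, beside 31.4% of all genes. The median log2 fold change over the 8 genes was 1.30. Psma5 rose 3.68-fold (log2 fold change 1.88 ± 0.16, SE, adjusted p = 4.78e-05) and Psma6 3.57-fold (1.84 ± 0.20, adjusted p = 1.45e-04). Psma3, Psma2, Psma4 and Psma7 rose by log2 fold changes of 1.51, 1.36, 1.24 and 0.86. Psma1 had the smallest rise at 0.40 (SE 0.11, adjusted p = 0.0141), and its fold change was -0.08 with equal totals, so its direction depends on the scaling. Per kb, Psma1 stood at 1442 beside 928 for Psma6 in Control PMφs, and at 1905 beside 3375 in LPS PMφs. Per kb of all annotated exons, Psma1 had 587 beside 784 for Psma6 in Control PMφs, and 775 beside 2850 in LPS PMφs. Their order in Control PMφs therefore depends on the length used.

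Psma8 was the only member called lower as deposited. Its values were 31, 34 and 28 in Control libraries 1, 2 and 3 and 17, 15 and 17 in LPS libraries, and the groups did not overlap, as for 30.7% of all genes in this direction. The log2 fold change was -0.88 (SE 0.25, adjusted p = 0.0191, limma). With oxLDL, its values were 36, 39 and 24 without LPS and 16, 31 and 29 with LPS, where the groups overlap. These values rest on few reads.

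All 7 core beta genes were called higher with LPS, beside 31.4% of all genes. Their log2 fold changes ran from 0.33 for Psmb1 to 1.27 for Psmb6. Psmb6 had values of 3066, 3192 and 3029 in Control, 3210, 3234 and 3297 in oxLDL, 6287, 8117 and 8157 in LPS and 7212, 8241 and 7467 in oxLDL+LPS libraries. The 6 libraries with LPS all lay above the 6 without. The fold change was 2.41 (log2 1.27 ± 0.12, SE, adjusted p = 7.64e-05).

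Psmb7, which carries the trypsin-like site, had values of 1213, 998 and 1101 in Control and 1882, 1856 and 2039 in LPS libraries. In oxLDL libraries they were 1345, 1179 and 1206, and in oxLDL+LPS libraries 2205, 2212 and 2040. The groups with and without LPS were apart, and the log2 fold change with LPS alone was 0.81 (SE 0.10, adjusted p = 3.32e-04). Psmb5, the target of proteasome inhibitors used in the clinic, gained less. Its values were 1334, 899 and 1146 in Control and 1711, 1392 and 1763 in LPS libraries, a log2 fold change of 0.54 (SE 0.16, adjusted p = 0.0240). The lowest LPS value exceeded the highest Control value by little, and number 2 was the lowest of both groups. The fold change of Psmb1 was -0.15 with equal totals and -0.08 after quantile normalization. Over the other scalings and fits tried, the lowest log2 fold changes of Psmb5 and Psmb3 were 0.05 and 0.08. Their limma adjusted p reached 0.792 and 0.448, so these calls also depend on the processing.

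The immunoproteasome counterparts of the catalytic genes all rose. Psmb8, Psmb9 and Psmb10 had log2 fold changes of 2.76, 3.27 and 3.38 with LPS. Per kb, Psmb8 stood at 506 beside 1253 for Psmb5 in Control PMφs, and at 3434 beside 1804 in LPS PMφs. Psmb10 stood at 489 beside 952 for Psmb7 in Control PMφs, and at 5088 beside 1660 in LPS PMφs. Psmb9 stayed below Psmb6, at 221 beside 3879 in Control PMφs and at 2134 beside 9424 in LPS PMφs.

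**Figure D2:**
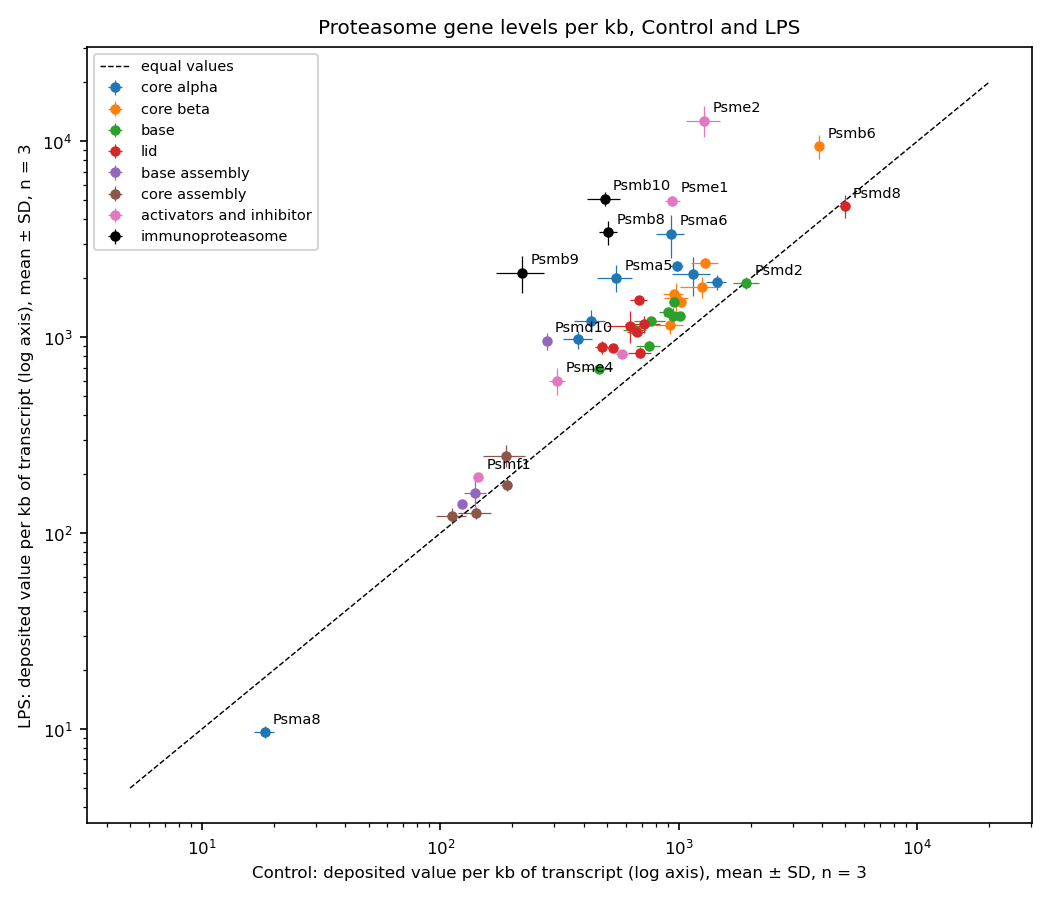
Levels per kb of the principal transcript in Control (horizontal) and LPS PMφs (vertical), on log axes, as means of 3 libraries with SD, and with the 3 immunoproteasome genes in black. Most core, base and lid genes lie above the dashed line of equal values, Psmd2 and Psmd8 lie near it, and Psme2 reaches 12755 per kb with LPS.

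In the regulatory particle, 8 of 9 base genes and 7 of 8 lid genes were called higher with LPS, beside 31.4% of all genes. The median log2 fold change was 0.58 for the base and 0.73 for the lid. The 6 ATPase genes Psmc1 to Psmc6 had fold changes from 0.34 for Psmc3 to 0.74 for Psmc2, a narrower range than that of the alpha genes. Psmd7, the lid partner of Psmd14, rose most, by 1.19 (SE 0.09, adjusted p = 3.05e-05). Psmd14 itself had values of 1071, 740 and 1077 in Control and 1734, 1451 and 2106 in LPS libraries, which do not overlap, and a log2 fold change of 0.88 (SE 0.19, adjusted p = 0.00530).

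Psmd2, a scaffold of the base, and Psmd8 were the exceptions. Psmd2 had values from 5110 to 6473 in Control and from 5293 to 6023 in LPS libraries, a log2 fold change of -0.02 with a 95% confidence interval from -0.29 to 0.25. Psmd8 ran from 7321 to 8061 and from 6240 to 8159, a log2 fold change of -0.09 with an interval from -0.37 to 0.18. The groups overlap for either gene, and the adjusted p was 0.895 for Psmd2 and 0.544 for Psmd8. Psmd2 and Psmd8 have the highest levels per kb of the base and of the lid. Their small changes are those of the deposited scaling, and equal totals moved the median of all genes to -0.48. The 6 members called lower with equal totals were not among the 35 called higher as deposited. Psmd1, Psmd13, Psmc3 and Psmc1 were called higher as deposited (0.28, 0.28, 0.34 and 0.44), and their fold changes were -0.20, -0.20, -0.14 and -0.04 with equal totals.

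Of the 7 assembly chaperones among the members, 1 was called higher with LPS alone without the block, beside 31.4% of all genes. This was Psmd10, also known as gankyrin, which helps to build the base. It had values of 417, 389 and 392 in Control and 1219, 1476 and 1427 in LPS libraries. In oxLDL libraries they were 392, 374 and 366, and in oxLDL+LPS libraries 1263, 1546 and 1304. The libraries with and without LPS were far apart, and the fold change with LPS alone was 3.42 (log2 1.78 ± 0.10, SE, adjusted p = 6.55e-06).

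The other base chaperones Psmd5 and Psmd9 had log2 fold changes of 0.20 and 0.20 with LPS alone, and neither was called (adjusted p = 0.298 and 0.137). Of the 4 core assembly chaperones, 0 were called by limma without the block. Psmg1, Psmg2, Psmg3 and Psmg4 had log2 fold changes of -0.14, -0.10, 0.14 and 0.41 with standard errors of 0.17, 0.13, 0.18 and 0.19. With the replicate number as a block, Psmg4 was called higher (adjusted p = 0.0491), which was the only change of a call among the members in this comparison and raised the members called higher to 36, beside 68.7% of all genes called, 34.6% as higher and 34.1% as lower. Their Control values ran from 83 to 210, so that fewer reads lie behind them than behind the subunits.

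All 5 activators and inhibitors were called higher with LPS, beside 31.4% of all genes. Psme2 had values of 1261, 1021 and 1417 in Control, 1258, 1218 and 1380 in oxLDL, 10866, 11127 and 14817 in LPS and 10627, 11901 and 11814 in oxLDL+LPS libraries. This was the largest rise among the members, 9.93-fold with LPS alone (log2 3.31 ± 0.16, SE, adjusted p = 2.71e-06). Psme2b, a close copy of Psme2, ran from 78 to 109 in Control and from 351 to 426 in LPS libraries, and reads shared by them were not separated here.

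Psme1, the partner of Psme2 in the activator, had values of 992, 1012 and 1133 in Control and 5238, 5463 and 5874 in LPS libraries. With oxLDL, they were 1096, 1119 and 1087 without LPS and 4227, 5527 and 4552 with LPS. The groups with and without LPS were apart in each case, and the fold change with LPS alone was 5.28 (log2 2.40 ± 0.09, SE, adjusted p = 7.75e-07).

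Psme3 encodes a nuclear activator that binds the core. Its values were 1620, 1447 and 1552 in Control, 1764, 1546 and 1715 in oxLDL, 2094, 2197 and 2266 in LPS and 2156, 2085 and 2197 in oxLDL+LPS libraries. The log2 fold change with LPS alone was 0.51 (SE 0.09, adjusted p = 0.00161). Over the other scalings and fits tried, it was 0.02 at the lowest, and the limma adjusted p reached 0.819.

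Psme4 encodes a large single-chain activator. Its values were 2085, 1828 and 2103 in Control, 2161, 1879 and 2413 in oxLDL, 3826, 3314 and 4552 in LPS and 4283, 3240 and 4428 in oxLDL+LPS libraries. All values with LPS lay above all values without it, and the log2 fold change with LPS alone was 0.95 (SE 0.13, adjusted p = 5.57e-04).

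Psmf1 encodes PI31, which binds the core and inhibits it in vitro. Its values were 540, 561 and 545 in Control, 529, 566 and 581 in oxLDL, 735, 719 and 760 in LPS and 826, 769 and 812 in oxLDL+LPS libraries. The groups did not overlap, with a log2 fold change of 0.43 with LPS alone (SE 0.09, adjusted p = 0.00391) that became -0.06 with equal totals.

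**Figure D3:**
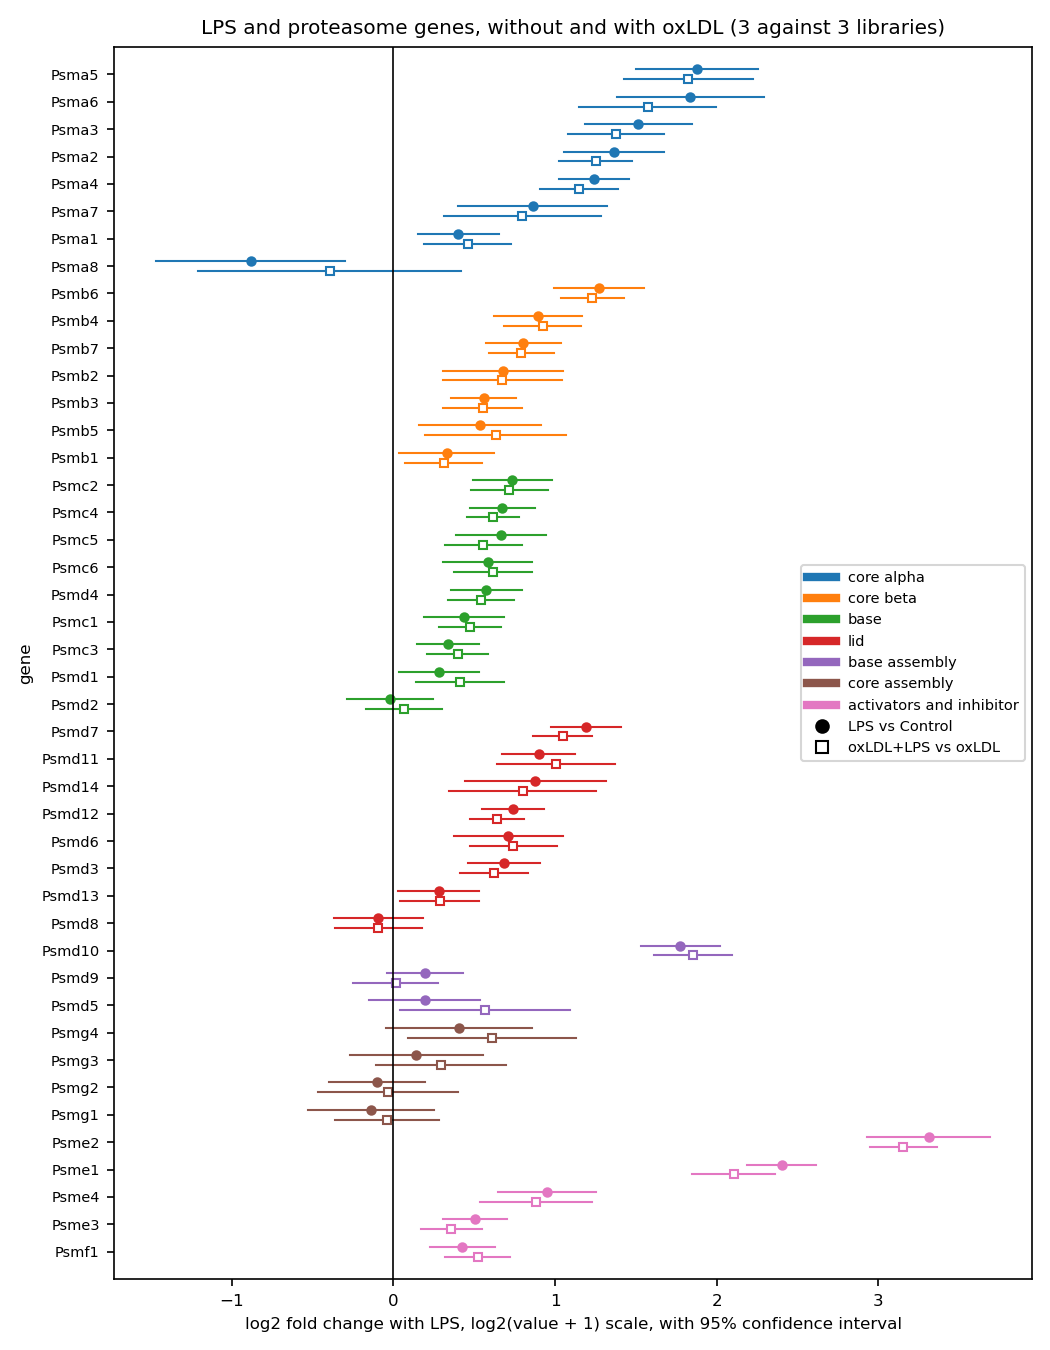
Log2 fold changes with LPS for the 44 members, grouped by role, with 95% confidence intervals from limma (3 against 3 libraries). Filled circles compare LPS with Control and open squares oxLDL+LPS with oxLDL. With LPS alone, Psme2, Psme1, Psma5, Psma6 and Psmd10 lie furthest to the right, Psma8 lies furthest to the left, and the intervals of Psmd2, Psmd8 and of Psmg1 to Psmg3 include 0 in both comparisons.

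In PMφs that already held oxLDL, LPS moved much the same set. Here 37 members were called higher and 0 lower (limma, 12883 genes tested, of which 54.5% were called, 28.1% as higher and 26.3% as lower), and 0 members had an unadjusted p under 0.05 with a lower value. All 35 members called higher with LPS alone were among the 37, and the other 2 were Psmd5 and Psmg4. Psme2, Psme1 and Psmd10 again had the smallest p, with log2 fold changes of 3.15, 2.10 and 1.85 (SE 0.09, 0.11 and 0.10, adjusted p = 4.36e-07, 7.29e-06 and 1.02e-05). The median was 0.62 over the members and -0.02 over all genes. With equal totals, these medians were 0.23 and -0.40. Then 19 members were called higher and 6 lower, beside 2052 and 6609 of 12883 genes. With the block the counts were again 37 and 0, beside 63.4% of all genes called, 32% as higher and 31.4% as lower. For 37 members (84.1%) the groups did not overlap and LPS was higher, beside 29% of all genes. This comparison and that with LPS alone share no library, but replicate numbers were taken to pair their libraries, so they are not independent. The comparison of oxLDL with Control shares its Control libraries with that of LPS alone and its oxLDL libraries with the comparison given here.

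oxLDL alone moved the proteasome genes far less than LPS. In oxLDL against Control PMφs, 0 of 44 members and 0 of 12734 genes (0%) were called by limma without a block, 2 members and 379 genes having an unadjusted p under 0.05. For 41 of the 44 members the log2 fold change was above 0, with a median of 0.10 over the members and -0.01 over all genes. Within the replicate numbers, 32 members (72.7%) were higher with oxLDL in all 3, beside 17% of all genes. The groups themselves did not overlap for 5 members, all higher with oxLDL, beside 3.71% of all genes. The member medians for numbers 1, 2 and 3 were 0.10, 0.12 and 0.13. By role, those higher in all 3 numbers were all 9 base genes, 7 of 8 alpha genes, 6 of 7 beta genes, 5 of 8 lid genes, 2 of 3 base assembly chaperones, 2 of 5 activators and inhibitors and 1 of 4 core assembly chaperones, and differences between roles were not tested. Psmd10 was lower in all 3, as were 18.8% of all genes, with a log2 fold change of -0.08 (SE 0.08, adjusted p = 1).

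With the replicate number as a block, 8 members were called higher with oxLDL and 0 lower, beside 4.7% of all genes called in either direction, 1.79% as higher and 2.91% as lower. They were the core genes Psmb5, Psmb3, Psmb7, Psma5 and Psma6, the ATPase Psmc2 and the lid genes Psmd14 and Psmd7. Psmb5 had values of 1494, 1136 and 1596 in oxLDL libraries against 1334, 899 and 1146 in Control libraries, higher in every number although the groups overlap. Its log2 fold change was 0.33 (SE 0.06 in the blocked fit, adjusted p = 0.0175), and without the block the SE was 0.17 and the adjusted p was 1. Psmd14 had 1186, 892 and 1317 against 1071, 740 and 1077, a log2 fold change of 0.24 (blocked adjusted p = 0.0344). Psmc2 had 1403, 1234 and 1396 against 1274, 1023 and 1213, a log2 fold change of 0.20 (blocked adjusted p = 0.0513).

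The log2 fold changes of the other 5 ran from 0.17 for Psmb7 to 0.24 for Psma5, and the largest of the 8 called rises was 1.25-fold, that of Psmb5. Leaving out number 1 kept only Psmb5 and Psmd14, leaving out number 2 left 0 members called (1.04% of all genes), and leaving out number 3 gave 13 members (10.32% of all genes).

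**Figure D4:**
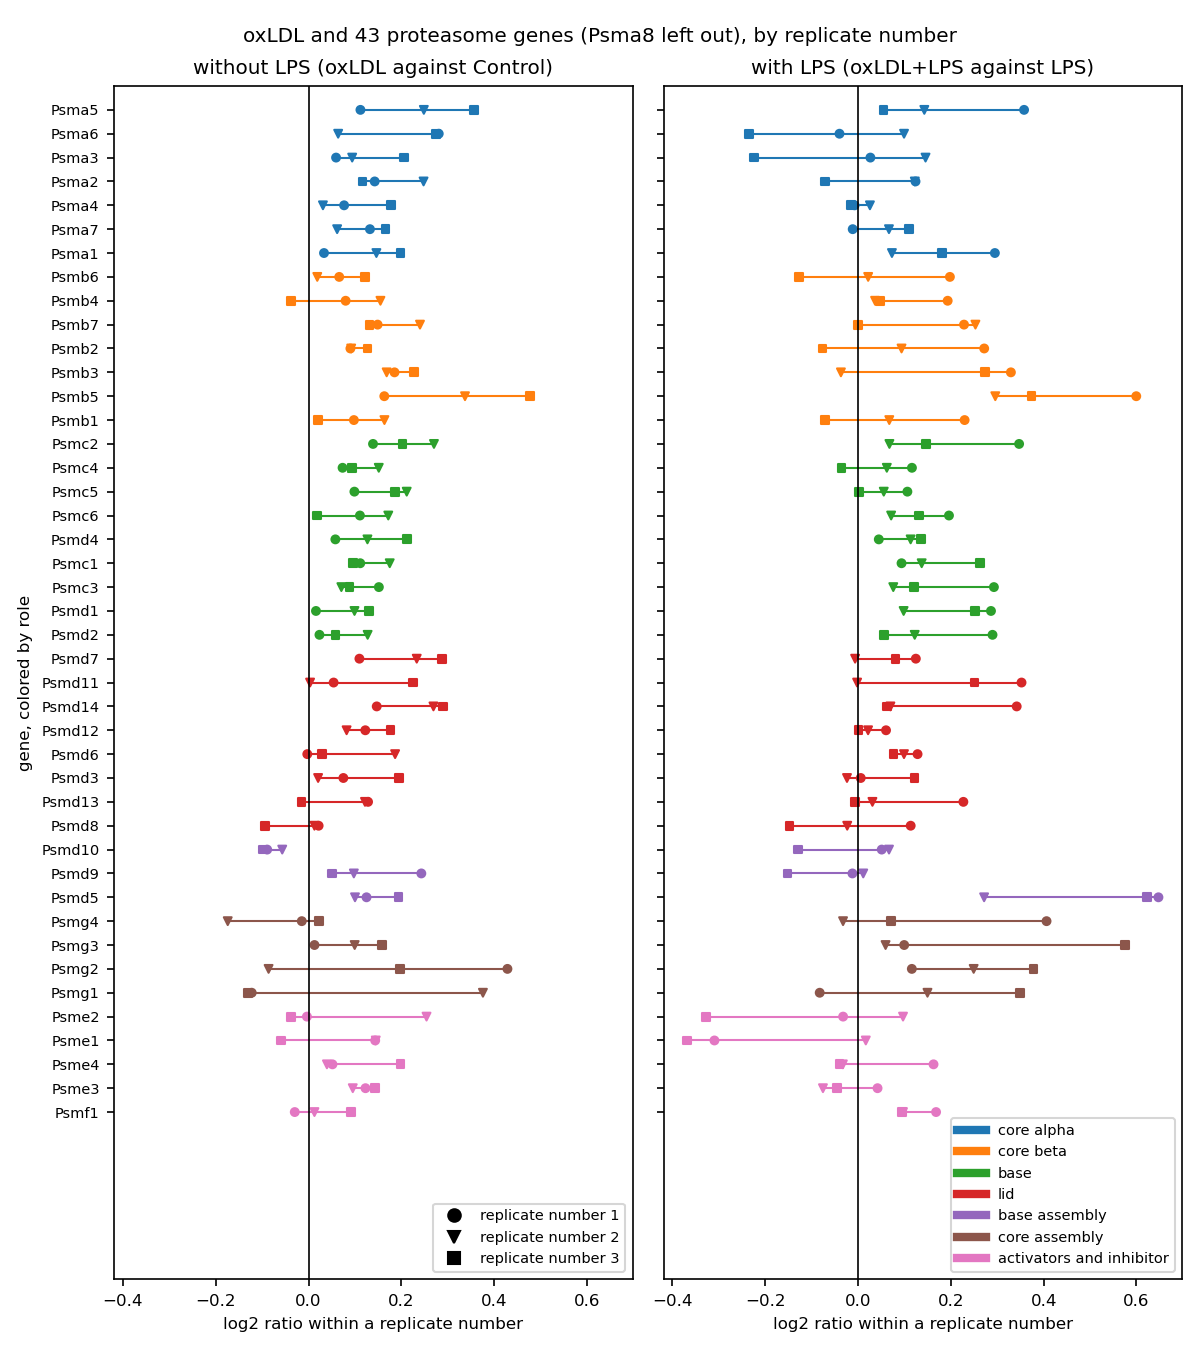
Log2 ratio of the oxLDL library to its partner of the same replicate number for 43 members, without LPS (left) and with LPS (right), with a line from the lowest to the highest of the 3 numbers. Without LPS most points lie to the right of 0, and Psmb5 and Psmd5 lie furthest to the right with LPS. Psma8 is left out for its low values.

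In PMφs given LPS, few members were called with prior oxLDL. In oxLDL+LPS against LPS PMφs, 0 of 44 members and 0 of 12769 genes (0%) were called without the block, with 1 member and 890 genes at an unadjusted p under 0.05. Of the log2 fold changes 36 were above 0, with a median of 0.10 over the members and -0.01 over all genes, and 20 members (45.5%) were higher in all 3 numbers, beside 20.5% of all genes. In the base, 8 of 9 genes were higher in all 3 numbers. The groups did not overlap for 5 members, all higher in oxLDL+LPS PMφs, beside 6% of all genes. With the block, 2 members were called higher and 0 lower, beside 13.2% of all genes called, 4.41% as higher and 8.75% as lower, so the share of members called higher was near that of all genes.

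The 2 genes were Psmb5 and Psmd5. Psmb5 had values of 2593, 1709 and 2285 in oxLDL+LPS libraries against 1711, 1392 and 1763 in LPS libraries, higher in every number although the groups overlap. The log2 fold change was 0.42 (SE 0.08 in the blocked fit, adjusted p = 0.0183, and 0.705 without the block). Psmd5, a chaperone of the base, had 1205, 698 and 1201 against 769, 578 and 780, a log2 fold change of 0.51 (blocked SE 0.09, adjusted p = 0.0145, and 0.714 without the block). Library 2 of Psmd5 in oxLDL+LPS lay below libraries 1 and 3 of LPS. Without oxLDL or LPS, Psmd5 had 662, 541 and 645, and with oxLDL alone 722, 580 and 738.

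Leaving out numbers 1 and 3 in turn left 0 members called in the blocked fit, beside 0.57% and 0% of all genes. Leaving out number 2 gave 7 higher and 1 lower, beside 23.91% of all genes, a larger share than that of the members. The lower member was Psme1, whose log2 fold change over all libraries was -0.22 with 1 of 3 numbers higher (blocked adjusted p = 0.183). With equal totals, which moved the median of all genes to 0.08, the blocked fit called 13 members higher, and 1012 genes higher and 567 lower of 12769.

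**Figure D5:**
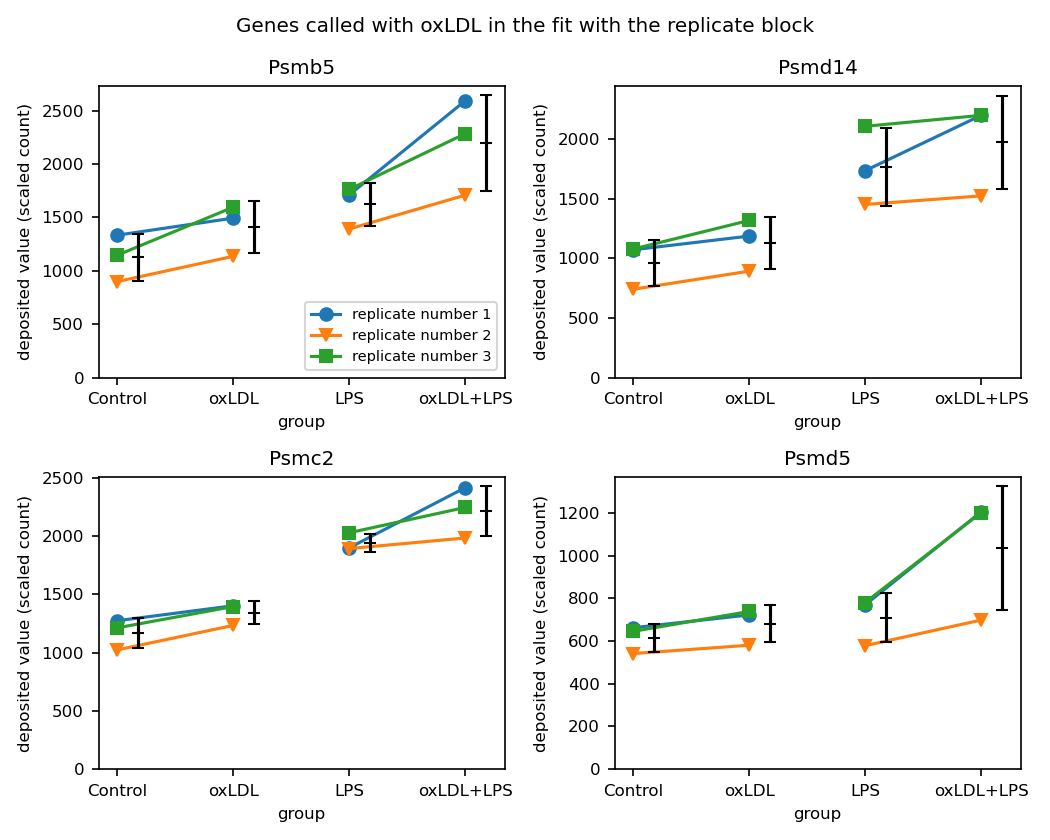
Values of Psmb5, Psmd14, Psmc2 and Psmd5 in each library, with lines joining libraries of the same replicate number within an LPS state and black bars for the mean ± SD of 3 libraries. Every line rises from left to right, and number 2 is the lowest line in each panel, at 899 for Psmb5 in Control PMφs.

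Whether oxLDL acted differently on the members with LPS than without it was tested as an interaction over all 12 libraries. Of 13465 genes, 0 (0%) were called with or without the block, and 416 and 967 had an unadjusted p under 0.05 without and with it. Among the members, 0 had an unadjusted p under 0.05 without the block and 3 with it. These were Psmd5 at 0.37, Psme1 at -0.30 and Psma6 at -0.26 on the log2 scale, with blocked adjusted p of 0.670, 0.674 and 0.695. For Psmb5 the interaction was 0.10 with a 95% confidence interval from -0.49 to 0.68, and from -0.14 to 0.34 with the block. The median over the members was -0.01, as it was over all genes.

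The replicate numbers differed in proteasome values apart from treatment. Number 2 was the lowest of the 3 for 37 of 44 members in Control, 36 in oxLDL, 26 in LPS and 30 in oxLDL+LPS PMφs, beside 31.9% to 35.3% of all genes. Averaged over the 14 core genes other than Psma8, log2 of the value plus 1 was 10.31, 10.02 and 10.30 in Control libraries 1, 2 and 3. This difference is about as large as the oxLDL effect on Psmb5. The summed mesothelial and fibroblast markers also differed between libraries, as given above, and their part in the proteasome values was not tested.

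The genes around the proteasome were taken from companion lists. Of 41 companions tested, 29 were higher and 4 lower with LPS alone, beside 31.4% and 30.3% of all genes. With LPS after oxLDL these were 30 and 4, beside 28.1% and 26.3%. All 6 further subunits and assembly factors rose with LPS, among them Pomp, which guides core maturation, at 1.03 (SE 0.15) and the ubiquitin receptor Adrm1 at 0.66 (SE 0.09). With oxLDL alone, 2 of 41 companions were called in the blocked fit, a share near the 4.7% of all genes. They were Adrm1 at 0.20 (adjusted p = 0.0602) and Sqstm1 at 0.30 (adjusted p = 0.0249).

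Of 11 genes that regulate proteasome transcription, 8 were higher and 2 lower with LPS alone, beside the same 31.4% and 30.3% of all genes. Nfe2l1, which encodes NRF1, had values of 4479, 4508 and 3747 in Control and 8272, 13002 and 9494 in LPS libraries (log2 fold change 1.25, SE 0.17), and Nfe2l2, which encodes NRF2, rose by 0.91 (SE 0.13). Ddi2, the protease that activates NRF1, moved the other way. It had values of 2207, 2494 and 2462 in Control and 701, 717 and 534 in LPS libraries, a log2 fold change of -1.88 (SE 0.13, adjusted p = 1.57e-05), and Ngly1, which removes sugars from NRF1, rose by 0.40 (SE 0.16, adjusted p = 0.0694). With oxLDL, neither Nfe2l1 (-0.08) nor Nfe2l2 (-0.13) was called, with or without the block.

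Some values carry a limit from the annotation. Exons of 11 members overlap another gene, 9 of them on the opposite strand, and the use of strand in counting is not stated. The overlapping genes with the highest mean values were Nek6 at Psmb7 (729), Slc39a13 at Psmc3 (439), Htr2b at Psmd1 (206), Emc9 at Psme1 (143) and Sirt3 at Psmd13 (80.9). Rows named as pseudogenes of members had values of at most 2.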

How the data were processed

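Per the methods and labels, reads were trimmed with Trimmomatic (0.32), aligned to GRCm38 (mm10) with STAR (2.5.1b) and assigned to GENCODE genes by featureCounts. The deposited numbers are treated as a score: they behave as counts that the authors scaled by library and rounded. Count models were therefore not used. Groups were compared with limma (3.58.1, R 4.3.3), lmFit and eBayes with a variance trend, on log2(value + 1), over genes of at least 10 in 3 or more of the 6 libraries compared (12 for the interaction). The pseudocount understates fold changes of low genes. A Benjamini-Hochberg adjusted p under 0.1 over all genes was called. Errors are SE unless named.

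Replicate numbers were checked as pairs. Deviations from group means of libraries with the same number had correlations from 0.60 to 0.66 between Control and oxLDL, 0.57 to 0.60 between LPS and oxLDL+LPS, 0.34 to 0.54 between Control and LPS and 0.27 to 0.57 between oxLDL and oxLDL+LPS (13482 genes, not independent). All exceeded 0.1, so the numbers were taken to pair libraries.

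The members, companion lists, motifs and tests were chosen with earlier results of these data known. Any member could be named. Values per library were to be given for the catalytic genes, Psmd14, the activators and inhibitor, and up to 3 higher and 3 lower members of smallest p per comparison (in the blocked fit where none was called). Values of other genes in every library were chosen after they were seen. Levels per kb used the principal transcript of GENCODE (GRCm38). Alternatives were a replicate block, other filters, pseudocounts and scalings, all 12 libraries in the fit and leaving out each library. Scaling to equal totals and blocked fits without a number were added after seeing the data. A spreadsheet had turned 25 symbols into dates, which were not assigned. The fits were tested on simulated data.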

Additional observations from a re-analysis of the deposited data

How the results depend on the processing

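With LPS, the members called were 33 to 37 of 44 when each library was left out, both with LPS alone and after oxLDL. With all libraries kept, 61.7% and 54.5% of all genes were called. The median log2 fold change of the members ran from 0.56 to 0.72 and from 0.55 to 0.70 with each library left out. That median was 0.35 and 0.37 after quantile normalization and 0.19 and 0.23 with equal totals, with or without the block. Equal totals lower every value of the libraries with LPS by construction. In the blocked fit without number 3 it was 0.64 after oxLDL.

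With LPS alone, quantile normalization turned Psma1 to -0.036, Psmb1 to -0.084, Psmc3 to -0.080, Psmd1 to -0.20 and Psmd13 to -0.071. Equal totals, with or without the block, turned Psma1 to -0.081, Psmb1 to -0.15, Psmc1 to -0.044, Psmc3 to -0.14, Psmd1 to -0.20, Psmd13 to -0.20, Psmf1 to -0.056 and Psmg4 to -0.073. After oxLDL, quantile normalization turned Psmb1 to -0.062, Psmd1 to -0.021, Psmd13 to -0.0435 and Psme3 to -0.014, and equal totals turned Psmb1 to -0.079, Psmd13 to -0.10 and Psme3 to -0.031.

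The replicate block raised the members called with oxLDL from 0 to 8 without LPS and from 0 to 2 with LPS. With the block and equal totals these were 9 and 13, beside 234 and 1012 genes called higher and 469 and 567 called lower. In the blocked fit without LPS, leaving out number 1 gave 2 and leaving out number 3 gave 13, and with LPS leaving out number 2 gave 8. The cause was not tested. Leaving out each library without the block kept 0 called in both comparisons and in the interaction, with medians from 0.0485 to 0.18 without LPS, from 0.068 to 0.16 with LPS and from -0.069 to 0.083 for the interaction. The oxLDL median was 0.12 without LPS after quantile normalization and in the blocked fit without number 2. With LPS it was 0.16 after quantile normalization, 0.19 with equal totals with or without the block, and 0.057 in the blocked fit without number 1. The interaction median was 0.083 with equal totals, with or without the block. Over all genes, the block raised the calls from 0 to 599 for oxLDL without LPS and from 0 to 1680 with LPS.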

Other observations

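Genes that bring proteins to the proteasome moved in both directions with LPS. Of 11 shuttle and segregase genes, 6 were called higher and 2 lower with LPS alone, beside 31.4% and 30.3% of all genes. Sqstm1, a receptor that links ubiquitin to autophagy, had values of 8302, 8164 and 8053 in Control, 9363, 9720 and 11273 in oxLDL, 15348, 25674 and 19580 in LPS and 45886, 34380 and 72557 in oxLDL+LPS libraries. These 4 groups did not overlap. Groups that were apart with oxLDL higher made up 3.71% of all genes without LPS and 6% with LPS. The log2 fold change of Sqstm1 with oxLDL in LPS PMφs was 1.30 (SE 0.23, adjusted p = 0.0153, limma with the block). That fit called 4.41% of all genes higher. Without the block 0 of 12769 genes were called, as were 0 in the blocked fit without number 3. Zfand2a and Ubqln2 were lower with LPS alone, by log2 fold changes of -1.48 and -0.52 (SE 0.12 and 0.08).

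The ubiquitin gene Ubb rose with LPS alone by a log2 fold change of 0.54 (SE 0.15), and the ubiquitin-activating enzymes Uba1 and Uba6 by 0.80 and 0.46 (SE 0.10 and 0.15). Among the regulators, Maff rose by 3.39 and Keap1 by 1.67 (SE 0.32 and 0.13), whereas Bach1 had a log2 fold change of -0.94 (SE 0.13). In oxLDL+LPS against LPS PMφs, Maff had a log2 fold change of -0.54 in the blocked fit (SE 0.08, adjusted p = 0.00931, limma). That fit called 8.75% of all genes lower. Maff values were 404, 837 and 681 against 563, 1358 and 932, lower in every number although the groups overlap. Without the block 0 of 12769 genes were called, as were 0 in the blocked fit without number 3.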
